A study of Mus musculus with 12 samples.

Results

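The genes described here move sodium and chloride across the lining of the ileum, the last segment of the small intestine, together with the kinase Sgk1 and the ubiquitin ligase that it acts on. They were chosen by name as 9 of the 54838 genes of the count table: Scnn1a, Scnn1b and Scnn1g, which encode the alpha, beta and gamma subunits of the epithelial sodium channel (ENaC), Sgk1, Nedd4l, the sodium/hydrogen exchanger Slc9a3 (NHE3), the sodium pump subunit Atp1b1, the chloride channel Cftr and the chloride/bicarbonate exchanger Slc26a3 (DRA). Earlier results of these data were known when the genes were chosen. RNA of 12 ilea was sequenced in 4 groups of 3 C57BL/6J mice, each library coming from a separate animal. Per the labels the mice drank normal water or water with 25 mM ZnSO4 for 7 days, were then injected with PBS or with 200 µg of dexamethasone (Dex, a synthetic glucocorticoid) in PBS, and were sampled 2 h later. All 4 groups thus had an injection. The groups are called water + PBS, water + Dex, ZnSO4 + PBS and ZnSO4 + Dex. The mice were, by the study's methods, adult females kept specific pathogen-free. Whole ileum was extracted, so epithelium, muscle and immune cells were read together.

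Sodium enters the intestinal epithelium from the lumen in exchange for protons through Slc9a3, coupled to chloride uptake through Slc26a3, and leaves on the blood side through the sodium pump, of which Atp1b1 is the beta subunit. In the distal colon and the kidney sodium also enters through ENaC, a channel built of 3 different subunits, which corticosteroids are known to raise. Nedd4l tags ENaC with ubiquitin and so removes it from the membrane, and Sgk1, a kinase whose gene is a classical target of glucocorticoids and aldosterone, phosphorylates Nedd4l and thereby keeps the channel at the surface. Sgk1 is also known to act on Slc9a3. Cftr secretes chloride, mainly from crypts. In GRCm38 the genes other than Nedd4l lie, by GENCODE M21, at chr6:125320659-125344943 (Scnn1a), chr7:121865038-121918514 (Scnn1b), chr7:121734479-121768475 (Scnn1g), chr10:21882184-21999903 (Sgk1), chr13:74121457-74169442 (Slc9a3), chr6:18170687-18322768 (Cftr) and chr12:31390871-31473917 (Slc26a3) on the plus strand and at chr1:164437109-164458355 (Atp1b1) on the minus strand. All 9 are annotated as protein-coding.

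The glucocorticoid receptor binds a palindrome (glucocorticoid response element, GRE), searched here as AGAACA followed after any 3 bases by TGTTCT, and the zinc sensor MTF1 binds metal response elements, searched as TGCACNC or TGCGCNC. Both strands were searched in RefSeq promoter windows of GRCm38.p6, which run from 250 bases before to 50 bases after an annotated start, and 12 such windows matched 7 of the 9 genes (6 of them Sgk1). The full palindrome occurred in 3 of 32851 mouse windows (0.00913%), of which 1 belongs to Sgk1. Its match lies at chr10:21993701-21993715, at -189 to -175 relative to a start at position 21993890. The inner letters ACANNNTGT, which overlap the palindrome, occurred in 6.85% of windows, and AGAACA, also inside it, in 19.0%. A metal response element was found in 25.7% of all windows and in 4 of the 12 windows of these genes, 1 each of Sgk1, Slc9a3, Atp1b1 and Cftr. These matches are letters in a window and not measured binding. The windows of Sgk1 at chr10:21993640-21993939 and of Slc9a3 at chr13:74121163-74121462, both on the plus strand, are shown because both genes rose several-fold with Dex and Slc9a3 also fell with ZnSO4, with the palindrome (Sgk1) and the metal response element (Slc9a3, at -82 to -76 relative to the start) in capitals.
Sgk1: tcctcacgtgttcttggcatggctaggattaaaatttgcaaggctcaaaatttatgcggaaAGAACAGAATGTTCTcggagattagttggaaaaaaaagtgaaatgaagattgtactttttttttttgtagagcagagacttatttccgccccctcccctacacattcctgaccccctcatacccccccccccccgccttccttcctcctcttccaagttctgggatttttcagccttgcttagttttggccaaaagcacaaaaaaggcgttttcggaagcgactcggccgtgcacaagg
Slc9a3: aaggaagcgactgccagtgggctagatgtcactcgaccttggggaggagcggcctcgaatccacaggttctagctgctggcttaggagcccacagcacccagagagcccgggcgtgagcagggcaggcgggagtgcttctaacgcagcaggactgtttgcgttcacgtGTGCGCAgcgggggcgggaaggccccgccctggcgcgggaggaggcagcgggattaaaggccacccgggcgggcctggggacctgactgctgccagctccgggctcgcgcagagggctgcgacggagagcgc

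Library totals ran from 10760132 to 11827487 counts. All values below per mouse are normalised counts (the count scaled to a common library size by TMM), listed from replicate 1 to 3 of a group. The treatments were visible in genes not among the 9. The metallothionein Mt1 rose with ZnSO4 in PBS mice by an LFC (log2 fold change) of 4.79 ± 0.28 (SE, n = 3 against 3, edgeR adjusted p = 9.1e-06). With Dex in water mice the glucocorticoid targets Fkbp5 and Tsc22d3 rose by LFCs of 3.34 ± 0.13 and 3.10 ± 0.17. Defining ileal and pan-epithelial markers were present in every library, while the colon markers Prdx6b and Hoxb13 had 0 counts in all of them (the 9 genes of the colon list summed to between 951 and 10569). The library ZnSO4 + Dex replicate 2 stood apart in 11 villus enterocyte markers, with a summed level of 97967 against 178133 to 262774 in the other 11, and B cell markers summed to between 151 and 8283 across mice. T cell markers summed to between 809 and 1089 in the 6 ZnSO4 mice and to between 1851 and 3599.6 in the 6 water mice. Enteric neuron and glia markers summed to between 596 and 962 in the ZnSO4 mice and to between 417 and 537 in the water mice, and enteroendocrine markers to between 4133 and 5783 and between 3265 and 4019. Goblet cell markers summed to between 149502 and 151723 in water + PBS and to between 169179 and 178828 in water + Dex. In ZnSO4 + PBS they summed to between 165842 and 201344, and in ZnSO4 + Dex to between 192684 and 227619. Plasma cell markers summed to between 27917 and 28984 in water + PBS and to between 23045 and 30202 in water + Dex. Their sums were 16585 to 24550 in ZnSO4 + PBS and 17677.5 to 24375 in ZnSO4 + Dex. With Dex, proximal small intestine markers summed to between 2590.1 and 5354 in 6 mice and to between 278 and 398 in the 6 PBS mice, and stem and crypt markers, which include Slc12a2, to between 16767 and 18842 against 12027 to 15975. The part of these markers in the results was not tested beyond the values given beside them.

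To compare genes with each other, levels were taken per kb of exon. The length was that of all annotated exons of a gene merged, not of 1 transcript. It was 17659 bases for Nedd4l and 5504 for Slc9a3, so the ranking depends on this choice. On this scale Atp1b1 was the most abundant of the 9, with a mean level over the 12 mice of 4644 normalised counts per kb. Sgk1 followed at 2271, Slc26a3 at 298, Cftr at 259.6, Slc9a3 at 163, Nedd4l at 70.5 and Scnn1a at 53.0. Scnn1g and Scnn1b were near the limit of detection, at 1.38 and 0.167. The level of Sgk1 was 634 ± 66.8 (SD, n = 3) per kb in water + PBS and 3466 ± 54.9 per kb in water + Dex, below Atp1b1 and above the other 7 genes in every group. The highest group mean exceeded the lowest 22.5-fold for Slc9a3 and 6.35-fold for Sgk1, but 1.12-fold for Nedd4l.

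**Figure D1:**
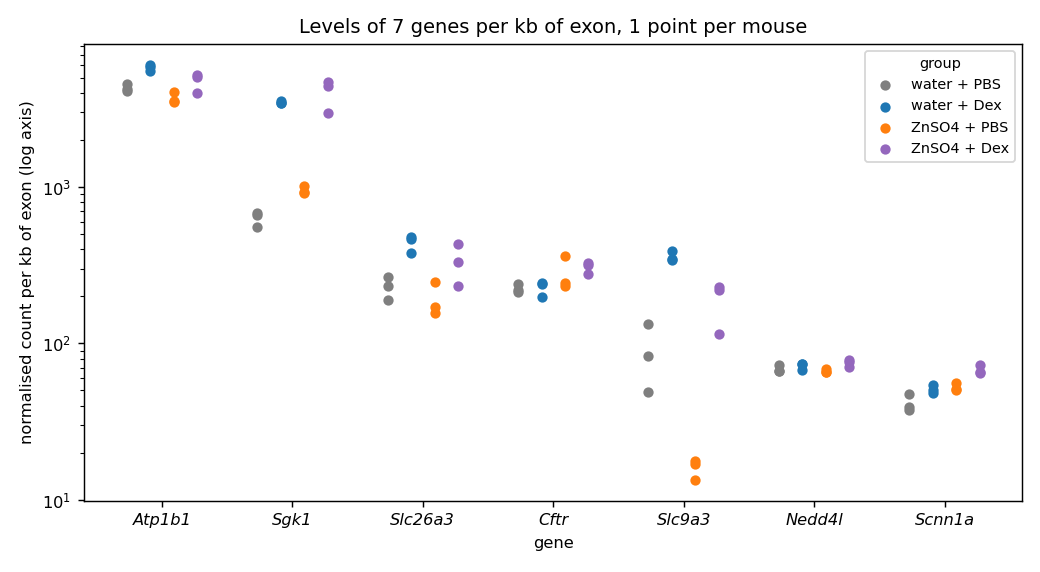
Normalised counts per kb of exon (log axis) of the 7 genes with reads in every mouse, 1 point per mouse, coloured by group. Nedd4l stayed within a narrow band, whereas Slc9a3 reached from 13.4 in a ZnSO4 + PBS mouse to 391 in a water + Dex mouse.

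The question of the next comparison was what a Dex injection did within 2 h in mice on normal water. Sgk1, Slc9a3, Slc26a3 and Atp1b1 rose, Scnn1g went from no reads to a few in each mouse, and Scnn1a, Nedd4l and Cftr did not pass the test. Of the 7 genes with enough reads for the test 4 were upregulated and 0 downregulated, beside 5.41% upregulated among all 15938 tested genes. Because earlier results were known when the genes were chosen, such counts are a description only. Of these 7, 5 had groups that did not overlap, as had 29.7% of all tested genes. The median LFC of the 7 was 0.43 and that of all tested genes was -0.01. In whole ileum a gene's rise may come from more RNA per cell or from more cells of a type, and these cannot be told apart.

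Sgk1, the kinase, stood at 2734, 3343 and 3246 normalised counts in water + PBS and at 16814, 16861 and 17302 in water + Dex. Every Dex mouse was far above every PBS mouse, and the Dex mice lay close together. The LFC was 2.45 ± 0.16 (SE), a 5.47-fold rise (adjusted p = 3.7e-06). In ZnSO4 mice Sgk1 was 4574, 4477 and 5007 with PBS and 22873, 14639 and 21722 with Dex. The groups again did not overlap, with replicate 2, the library of low villus markers, lowest of the Dex mice. The LFC was 2.07 ± 0.16, a 4.21-fold rise (adjusted p = 9.2e-06), and 2.25 without replicate 2.

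Slc9a3, the exchanger that takes up sodium at the brush border, rose in both waters. In water + PBS its normalised counts were 734, 458 and 269.9, a wide spread (CV 48.0%), and in water + Dex they were 1912, 2152 and 1875. Even the highest PBS mouse was well below the lowest Dex mouse. The LFC was 2.02 ± 0.32, a 4.06-fold rise (adjusted p = 0.0019). In ZnSO4 mice the gene stood at 73.5, 97.9 and 92.6 with PBS and at 1210.0, 635 and 1257 with Dex. These groups were farther apart, with an LFC of 3.55 ± 0.36, an 11.7-fold rise (adjusted p = 6.5e-05). The starting level was lower in the ZnSO4 mice and the level after Dex was lower too. The test of whether the Dex effect differed between the waters (the interaction) gave an LFC of 1.53 (95% confidence interval 0.51 to 2.54, unadjusted p = 0.0068), which did not pass adjustment over all genes (adjusted p = 0.95).

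Slc26a3, which exchanges luminal chloride for bicarbonate and works together with Slc9a3, was measured at 1483, 1213 and 1705 normalised counts in water + PBS and at 2400.4, 3057 and 2972 in water + Dex. The 2 groups did not overlap. The LFC was 0.94 ± 0.23, a 1.92-fold rise (adjusted p = 0.022). The adjusted p came to 0.069, 0.085, 0.085 and 0.083 without water + PBS replicate 1 or 2 or without water + Dex replicate 2 or 3. In ZnSO4 mice it was 1572, 1089 and 1001 with PBS and 2743, 1479 and 2096 with Dex, so that Dex replicate 2 overlapped the PBS mice. The LFC was 0.79 ± 0.23 (adjusted p = 0.040), and it was 0.99 (adjusted p = 0.0096) without that library of low villus markers. The call of this Dex effect in ZnSO4 mice ended without ZnSO4 + Dex replicate 1 (LFC 0.55, adjusted p = 0.16) or 3 (0.078), without ZnSO4 + PBS replicate 2 (0.13) or 3 (0.13), and without water + PBS replicate 1 (0.062) or water + Dex replicate 1, 2 or 3 (0.0503, 0.061 and 0.063). It also ended with only the groups compared (0.11) and with the B cell covariate (0.075).

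Atp1b1, the beta subunit of the sodium pump, rose by less. It had 14112, 12640.3 and 13079 normalised counts in water + PBS and 18082, 16898 and 18648 in water + Dex, with no overlap. The LFC was 0.43 ± 0.12, a 1.35-fold rise, just inside the threshold (adjusted p = 0.047). It left the threshold without any 1 of 10 libraries (adjusted p from 0.055 to 0.19), namely water + PBS 1, 2 or 3, water + Dex 1, 2 or 3, ZnSO4 + PBS 1, 2 or 3 and ZnSO4 + Dex 1. It also did so with RLE size factors (adjusted p = 0.055), without a filter on low counts (0.091) and with the B cell covariate (0.085). In ZnSO4 mice the values were 12465, 10756 and 10958 with PBS and 15608, 12300.3 and 16150 with Dex. The lowest Dex mouse, replicate 2, lay just under the highest PBS mouse. The LFC of 0.37 ± 0.12 did not pass (adjusted p = 0.072), but did without replicate 2 (LFC 0.48, adjusted p = 0.0067). In GENCODE M21, 18.7% of the exon bases of Atp1b1 overlap Nme7 on the other strand, and although the library kit was stranded, the strand setting of the counting is not given in the sources used here.

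Scnn1a, the alpha subunit of ENaC, was low but read in every mouse. Its normalised counts were 161, 155 and 195 in water + PBS and 199.6, 208 and 223 in water + Dex. In ZnSO4 mice they were 206, 209.6 and 232 with PBS and 266, 301 and 271 with Dex. Dex mice were above PBS mice in each water. In water mice the LFC of 0.30 ± 0.11 did not pass (adjusted p = 0.12), except without water + PBS replicate 3 (LFC 0.41, adjusted p = 0.046). In ZnSO4 mice an LFC of 0.37 ± 0.11 did (adjusted p = 0.041). That call ended without any 1 of 10 libraries (adjusted p from 0.052 to 0.14), namely water + PBS 1, water + Dex 1, 2 or 3, ZnSO4 + PBS 1, 2 or 3 and ZnSO4 + Dex 1, 2 or 3. It also ended without a filter on low counts (adjusted p = 0.12), with only the groups compared (0.070), with the B cell covariate (0.080) and with pan-epithelial scaling (0.068).

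Scnn1g, the gamma subunit, had 0 reads in each of the 6 PBS mice and reads in each of the 6 Dex mice. The raw counts were 3, 8 and 13 in water + Dex and 12, 5 and 6 in ZnSO4 + Dex, 47 in all. With few reads in the Dex mice and none in the others, the gene was below the read filter. Over the water + Dex group this was 0.768 CPM (counts scaled to library size, exact Poisson 95% interval 0.492 to 1.14), against a limit of 0.0857 that a floor of 3 counts over the water + PBS group allows. Against that floor the measured level of Scnn1g was 8.96-fold higher with Dex in water mice and 8.43-fold higher in ZnSO4 mice. These ratios leave out the interval of the Dex level, which began at 0.436 CPM in ZnSO4 + Dex, and so are not lower bounds. The exact Poisson upper limit was 0.105 CPM in water + PBS and 0.100 CPM in ZnSO4 + PBS. The interval and the floor cover counting error only. The edgeR fit without a filter on low counts also takes in the spread between mice. There Scnn1g had an adjusted p of 0.0061 with Dex in water mice and 0.0057 in ZnSO4 mice. Averaged over both waters it was 1.4e-04. Scnn1b, the beta subunit, had 5 reads in all: 1 in water + PBS replicate 2, 1 in water + Dex replicate 3 and 3 in ZnSO4 + Dex replicate 3. A change of Scnn1b could not be seen at this depth.

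Nedd4l, the ligase, was the steadiest of the 9. Its normalised counts ran from 1170.3 to 1284 in water + PBS, from 1197 to 1307 in water + Dex, from 1159 to 1217 in ZnSO4 + PBS and from 1251 to 1383 in ZnSO4 + Dex. The Dex LFC was 0.07 (95% interval -0.08 to 0.22) in water mice and 0.17 (0.02 to 0.32) in ZnSO4 mice, with adjusted p of 0.59 and 0.14. Cftr, the chloride channel, had 1697, 1656 and 1872 normalised counts in water + PBS and 1547, 1875 and 1868 in water + Dex. These groups overlapped throughout. The Dex LFC of Cftr was 0.02 (-0.31 to 0.35) in water mice and 0.13 (-0.20 to 0.46) in ZnSO4 mice, and without ZnSO4 + PBS replicate 1, the mouse of highest Cftr, the latter was 0.36. Without ZnSO4 + PBS replicate 2 or 3 it was 0.038 and 0.014, and without ZnSO4 + Dex replicate 1 or 2 it was 0.083 and 0.20. The tests of Nedd4l and Cftr did not pass, which does not show that Dex left them unchanged.

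**Figure D2:**
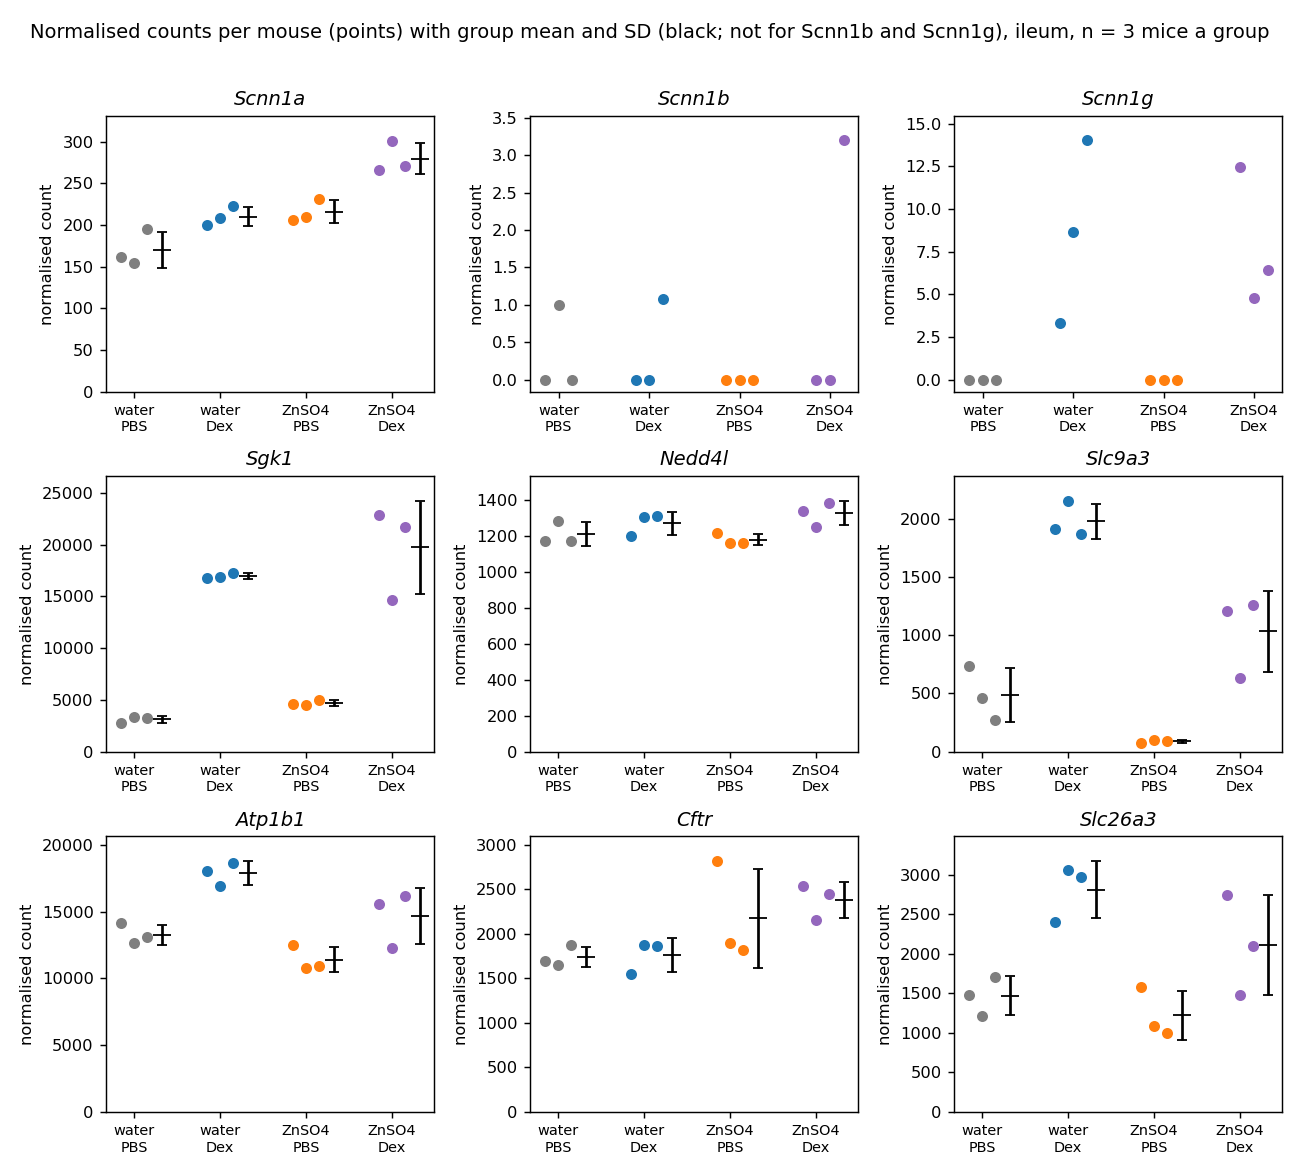
Normalised counts of the 9 genes in every mouse (points, replicates 1 to 3 from left to right) by group, with the group mean and SD in black except for Scnn1b and Scnn1g. Sgk1 stood between 14639 and 22873 in the 6 Dex mice and between 2734 and 5007 in the 6 PBS mice, and Scnn1g was at 0 in all PBS mice.

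In ZnSO4 mice as a whole, 4 of the 7 tested genes were upregulated by Dex (Sgk1, Slc9a3, Slc26a3 and Scnn1a) and 0 downregulated, beside 6.65% of all tested genes upregulated. The groups of 4 of the 7 did not overlap, as for 29.1% of all tested genes. The median LFC was 0.37 beside 0.01 for all tested genes. Averaged over both waters, a contrast added after the data were seen that uses all 12 mice, Dex raised 5 of the 7: Sgk1 (LFC 2.26 ± 0.11), Slc9a3 (2.79 ± 0.24), Slc26a3 (0.86 ± 0.16), Atp1b1 (0.40 ± 0.09) and Scnn1a (0.34 ± 0.08). Of all tested genes 10.4% were higher in that contrast. The adjusted p was 0.0061 for Atp1b1 and 0.0081 for Scnn1a, and all 5 calls held in each of the 20 alternative fits run for them, each library left out included. Nedd4l (LFC 0.12, adjusted p = 0.10) and Cftr (0.07, adjusted p = 0.68) did not pass.

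The summed villus enterocyte markers lay between 178133 and 204556 in water + PBS and between 229644 and 262774 in water + Dex, although edgeR called 0 of the 11 markers in that comparison, with 0 at an unadjusted p under 0.05. With these markers as a covariate, a fit added after the data were seen, the Dex LFC in water mice was 2.34 for Sgk1, 1.92 for Slc9a3 and 0.71 for Slc26a3, each still called. That of Atp1b1 was 0.36 and was not (adjusted p = 0.073). In ZnSO4 mice Sgk1 (LFC 2.10), Slc9a3 (3.55) and Slc26a3 (0.86) were still called with this covariate. Scnn1a was not (LFC 0.35, adjusted p = 0.053), while Atp1b1 (0.39, adjusted p = 0.032) and Nedd4l (0.19, adjusted p = 0.049) passed.

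**Figure D3:**
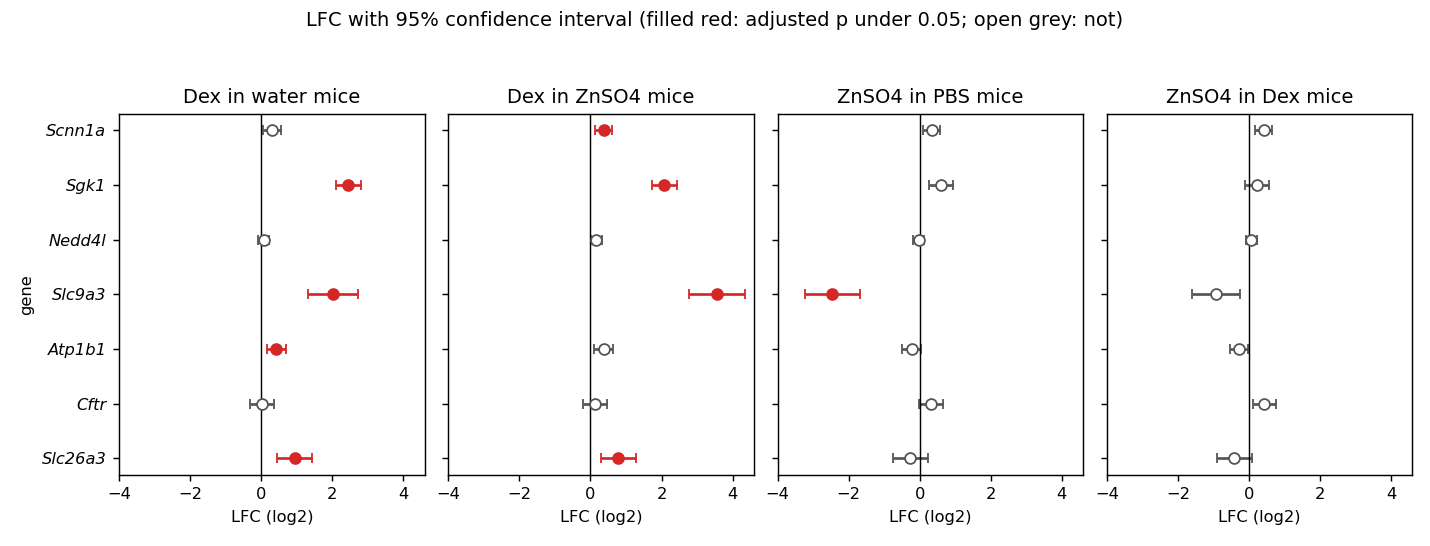
LFC (log2, points) with 95% confidence interval (bars) of the 7 tested genes in the 4 comparisons, filled red where the adjusted p was under 0.05. Dex moved Sgk1, Slc9a3 and Slc26a3 upward in both waters, and ZnSO4 moved Slc9a3 downward in PBS mice by 2.47.

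The next question was what ZnSO4 in the drinking water did to these genes without Dex. Slc9a3 fell, and no other of the 9 passed the test. That is 1 of 7 downregulated, beside 2.54% of all tested genes, and 0 of 7 upregulated, beside 2.11%. Slc9a3 went from 734, 458 and 269.9 normalised counts in water + PBS to 73.5, 97.9 and 92.6 in ZnSO4 + PBS. The lowest water mouse was above every ZnSO4 mouse, and the ZnSO4 mice were close together. The LFC was -2.47 ± 0.35, a 5.52-fold fall (adjusted p = 0.0032). With the villus markers as a covariate it was -2.40 (adjusted p = 0.0055). The summed villus markers lay between 189055 and 231676 in ZnSO4 + PBS and between 178133 and 204556 in water + PBS, whereas their mean log2 CPM was 8.24, 7.76 and 7.54 in ZnSO4 + PBS and 7.84, 8.37 and 8.18 in water + PBS. The median LFC of the 11 markers was -0.21, and edgeR called 0 of them, with 3 at an unadjusted p under 0.05. Of all 15938 tested genes 3161 were at such a p.

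Sgk1 was higher in each ZnSO4 + PBS mouse (4477 to 5007) than in each water + PBS mouse (2734 to 3343). The LFC of 0.59 ± 0.15 was just outside the threshold (adjusted p = 0.051), and was inside it with DESeq2 (adjusted p = 0.0025) or without ZnSO4 + Dex replicate 2 (adjusted p = 0.0040). The groups of Scnn1a did not overlap either (LFC 0.34 ± 0.11, adjusted p = 0.105). Those of Atp1b1 were apart in the other direction, with an LFC of -0.22 ± 0.12 (adjusted p = 0.35). Non-overlapping groups were found for 25.3% of all tested genes. Slc26a3 (LFC -0.27, 95% interval -0.76 to 0.23), Cftr (0.32, -0.01 to 0.65) and Nedd4l (-0.04, -0.18 to 0.11) did not pass. Cftr had 1 mouse far above the others of its group, ZnSO4 + PBS replicate 1 at 2816 against 1896 and 1816, and without it the LFC of Cftr was 0.092.

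In Dex-injected mice ZnSO4 changed 0 of the 7 genes by edgeR, beside 1.83% of all tested genes upregulated and 2.54% downregulated. DESeq2 called 2, Slc9a3 and Scnn1a, and 4 of the 7 were at an unadjusted edgeR p under 0.05. Of all 15938 tested genes DESeq2 called 1022, and 3048 were at an unadjusted edgeR p under 0.05. Slc9a3 was 1912, 2152 and 1875 in water + Dex and 1210.0, 635 and 1257 in ZnSO4 + Dex, apart in every mouse. Its LFC was -0.94 ± 0.31 (adjusted p = 0.12; DESeq2 0.030). Scnn1a was at its highest in ZnSO4 + Dex, from 266 to 301 against 199.6 to 223 in water + Dex, with an LFC of 0.41 ± 0.11 (adjusted p = 0.058; DESeq2 0.038). It passed without water + PBS replicate 3 (adjusted p = 0.041). Non-overlapping groups were found for 25.9% of all tested genes. Cftr was also apart (LFC 0.43 ± 0.15, adjusted p = 0.14), and passed without ZnSO4 + PBS replicate 1 (adjusted p = 0.037) or with the villus covariate (LFC 0.72, adjusted p = 0.042). Sgk1 overlapped between the 2 groups (LFC 0.22, 95% interval -0.12 to 0.55), as did Slc26a3 (-0.42, -0.91 to 0.08) and Nedd4l (0.06, -0.09 to 0.21). Atp1b1 did not overlap, at an LFC of -0.28 ± 0.12 (adjusted p = 0.23). In both of the 2 ZnSO4 comparisons Scnn1a, Sgk1 and Cftr had positive LFCs and Slc9a3, Slc26a3 and Atp1b1 negative ones, while Nedd4l differed in sign.

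Averaged over both injections, a contrast added after the data were seen, ZnSO4 lowered Slc9a3 (LFC -1.70 ± 0.23, adjusted p = 8.6e-04) and raised Scnn1a (0.38 ± 0.08, adjusted p = 0.0086), Sgk1 (0.40 ± 0.11, adjusted p = 0.031) and Cftr (0.38 ± 0.11, adjusted p = 0.040). Of all tested genes 6.24% were higher and 6.52% lower. The calls of Slc9a3 and Scnn1a held without each single library, and that of Scnn1a ended with the villus markers as a covariate (LFC 0.31, adjusted p = 0.084). That of Sgk1 ended without any 1 of 9 libraries (adjusted p from 0.052 to 0.078), all except water + PBS 2, ZnSO4 + PBS 2 and ZnSO4 + Dex 2. That of Cftr ended without any 1 of 8 (adjusted p from 0.054 to 0.10), namely the 6 water mice and ZnSO4 + Dex 1 or 3. No gene of the 9 passed the interaction of ZnSO4 and Dex. Over all genes edgeR called 0 there, with 794 at an unadjusted p under 0.05, and DESeq2 called 6.

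By group means, Slc9a3 rose in the order ZnSO4 + PBS (88.0), water + PBS (487), ZnSO4 + Dex (1034) and water + Dex (1980), and only the middle pair overlapped between mice. Atp1b1 and Slc26a3 had this same order of group means. Of their neighbouring groups, the outer pairs of Atp1b1 were apart, while all 3 neighbouring pairs of Slc26a3 overlapped. Sgk1 ran from water + PBS (3108) over ZnSO4 + PBS (4686) and water + Dex (16992) to ZnSO4 + Dex (19745), with overlap between the 2 Dex groups alone. Scnn1a ran from water + PBS (170.3) over water + Dex (210.2) and ZnSO4 + PBS (216) to ZnSO4 + Dex (279), and its middle pair overlapped. For Cftr and Nedd4l every neighbouring pair overlapped.

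Across the 12 libraries, which share the treatments, log2 levels of Atp1b1 had a correlation of 0.93 with Slc26a3 and of 0.90 with Slc9a3, and -0.08 with Cftr. Among 14971 genes with a mean of at least 1 CPM, genes with a pattern most like that of Sgk1 included Tmem86a and Cables1 (r = 0.99 each, as in all of these a description over 12 libraries). For Slc9a3 they were Gm5431, Smad1 and Zdhhc15 (0.98 each), for Slc26a3 Alas1, Tmc5 and Entpd7 (0.96 each), and for Atp1b1 Gbf1, Azin1 and Ermp1 (0.99, 0.98 and 0.97). The genes nearest to Scnn1a were Ptpru, Ric3 and Snhg18 (0.98, 0.97 and 0.96). Those nearest to Cftr, led by Slc9a3r2, a scaffold that binds Slc9a3 and Cftr, reached 0.90, and those nearest to Nedd4l, led by Hdac4, also 0.90.

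A wider list of 180 genes of epithelial ion transport, in 9 roles, set the 9 genes in context, of which 152 passed the read filter. This list was also made with earlier results of these data known. With Dex in water mice 32 were upregulated and 9 downregulated (5.41% and 4.51% of all tested genes), and in ZnSO4 mice 27 and 19 (6.65% and 7.08%). Their median LFCs were 0.09 and -0.02, and those of all tested genes -0.01 and 0.01. Upregulated in both were 23, which is 71.9% of the calls in water and 85.2% of those in ZnSO4 mice. Downregulated in both were 8 (88.9% and 42.1%), and 0 were called in opposite directions. The same overlap over all tested genes is not given here, so these shares cannot be set against those of other genes. These 2 comparisons share no library. The 41 calls of the wider list in water mice came to 27 without water + PBS replicate 3 and to 21 without water + Dex replicate 3.

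**Figure D4:**
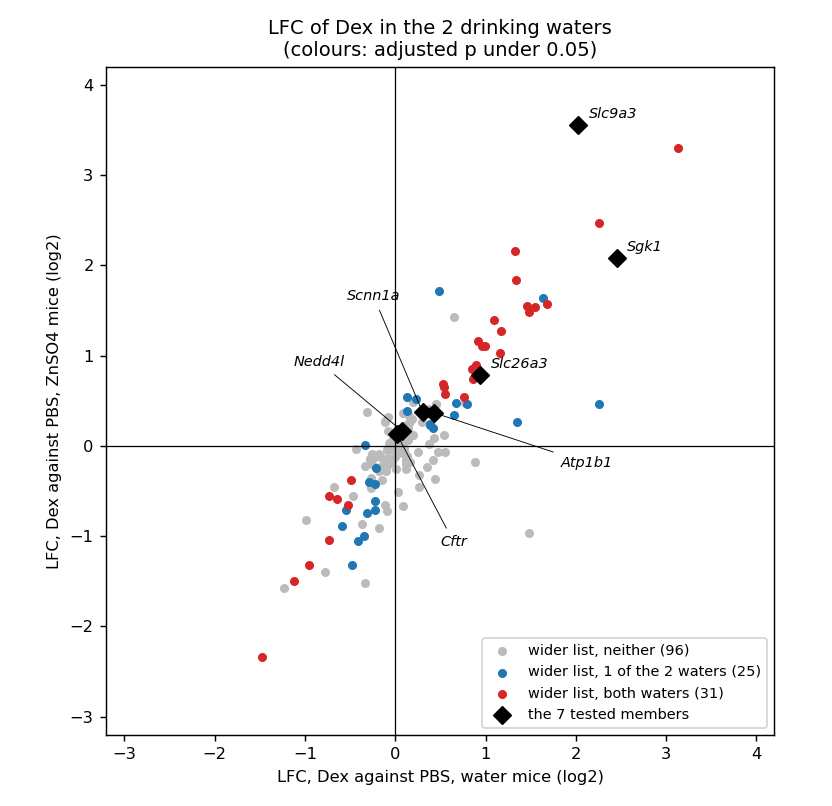
LFC of Dex in ZnSO4 mice (vertical) against that in water mice (horizontal), both log2, for the 152 tested genes of the wider list (dots) and the 7 tested genes described here (black diamonds). Of the dots, 31 were called in both waters (red), 25 in 1 of them (blue) and 96 in neither (grey), and Slc9a3 (2.02 and 3.55) and Sgk1 (2.45 and 2.07) lie among the uppermost points.

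Among 16 exchangers and scaffolds around Slc9a3, 1 rose and 1 fell with Dex in water mice (5.41% and 4.51% of all tested genes). In ZnSO4 mice 0 rose and 2 fell (6.65% and 7.08%). Ezr, the linker of brush border proteins to actin, did not pass in either (LFC 0.43 and 0.09). Of 9 proteases, inhibitors and acid-sensing relatives of ENaC edgeR called 0 with Dex in either water, with 1 and 4 at an unadjusted p under 0.05. Of all 15938 tested genes 3623 and 4196 were at such a p. The protease inhibitor Spint2 had LFCs of 0.09 and -0.02.

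Of 22 tested genes of the Sgk1 and steroid route, 3 rose and 1 fell with Dex in water mice (all tested: 5.41% and 4.51%). In ZnSO4 mice 3 rose and 4 fell (6.65% and 7.08%). Hsd11b2, the enzyme that inactivates corticosterone and so guards the mineralocorticoid receptor, rose from 302 ± 66.5 to 843 ± 28.9 normalised counts (SD, n = 3) in water mice. Its LFC was 1.48 ± 0.20 (adjusted p = 5.9e-04) and 1.49 ± 0.19 in ZnSO4 mice. Named after their values were seen, Usp2, a deubiquitinase known to act against ubiquitination of ENaC, rose by 1.1 and 1.39 (adjusted p = 0.0039 and 6.5e-04). Nr3c1, the glucocorticoid receptor, fell by 0.96 and 1.32 on the log2 scale (adjusted p = 1.6e-05 and 1.5e-06). Nr3c2, the mineralocorticoid receptor, had LFCs of -0.29 (adjusted p = 0.076) and -0.40 (adjusted p = 0.012). The adaptor Ywhab, most abundant of the role, did not pass (0.10 and 0.11).

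Of 39 chloride and bicarbonate transporters, 9 rose and 2 fell with Dex in water mice (5.41% and 4.51% of all tested genes). In ZnSO4 mice 6 rose and 3 fell (6.65% and 7.08%). Slc12a3, the thiazide-sensitive sodium chloride cotransporter of the kidney, went from 2.56 ± 2.22 to 23.6 ± 3.24 normalised counts in water mice, an LFC of 3.13 ± 0.47 (adjusted p = 0.0014) at a very low level. In ZnSO4 mice its LFC was 3.30 ± 0.45. The sodium-coupled bicarbonate carrier Slc4a10 rose by 1.34 and 1.84, also from few reads. Clca1, a goblet cell product and the most abundant of the role, did not pass (0.19 and 0.29). Slc12a2, the cotransporter that loads crypt cells with chloride for secretion through Cftr and named after its values were seen, rose by 0.86 and 0.74 (adjusted p = 0.0014 and 0.0027).

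Among 18 carbonic anhydrases and signals of anion secretion, 6 rose and 0 fell with Dex in water mice (all tested: 5.41% and 4.51%). In ZnSO4 mice 5 rose and 1 fell (6.65% and 7.08%). Guca2a, which encodes guanylin, a luminal peptide that opens Cftr through guanylate cyclase C, rose by 0.42 ± 0.11 in water mice (adjusted p = 0.037) and had an LFC of 0.19 in ZnSO4 mice (adjusted p = 0.32). Its receptor Gucy2c, named after its values were seen, rose by 0.85 in each water (adjusted p = 0.0028 and 0.0019). The adenosine receptor Adora2b went from 6.82 ± 2.55 to 21.5 ± 1.77 normalised counts in water mice (LFC 1.64 ± 0.46, adjusted p = 0.044). Car14 rose by 1.33 and 2.16 (adjusted p = 0.014 and 4.5e-04).

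Of 9 potassium channels 4 rose and 2 fell with Dex in water mice (5.41% and 4.51% of all tested genes). In ZnSO4 mice 5 rose and 2 fell (6.65% and 7.08%). Such channels carry back the potassium that the pump takes in. Kcnk1, the most abundant per kb, rose by 0.99 ± 0.10 (adjusted p = 5.4e-05) and 1.11 ± 0.10 (adjusted p = 2.1e-05). Kcnj16 rose in ZnSO4 mice (LFC 1.72 ± 0.30), and its LFC in water mice was 0.49 (adjusted p = 0.40). Named after their values were seen, Kcnq1 rose by 0.53 and 0.68, while its partner Kcne3 (-0.65 and -0.58) and the calcium-activated Kcnn4 (-0.73 and -0.55) fell, with adjusted p from 0.0036 to 0.014.

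Of 24 genes of sodium-coupled solute uptake, 6 rose and 2 fell with Dex in water mice (5.41% and 4.51% of all tested genes). In ZnSO4 mice 6 rose and 6 fell (6.65% and 7.08%). Slc5a1, the sodium/glucose cotransporter SGLT1 and most abundant of the role, rose by 0.97 ± 0.21 (adjusted p = 0.013) and 1.11 ± 0.21 (adjusted p = 0.0045). The monocarboxylate carrier Slc5a12 rose by 2.26 and 2.47, and the taurine carrier Slc6a6 by 1.68 and 1.57. The phosphate carrier Slc34a2 fell from 11810.4 ± 707 to 2341 ± 1239 normalised counts with Dex in ZnSO4 mice (LFC -2.34 ± 0.32, adjusted p = 5.1e-04) and had an LFC of -1.47 in water mice (adjusted p = 0.011). Among 6 water channels Aqp1 rose by 1.55 and 1.53 and 1 other gene fell in each water.

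ZnSO4 moved fewer of the 152. In PBS mice 10 rose and 4 fell (2.11% and 2.54% of all tested genes), and in Dex mice 6 rose and 7 fell (1.83% and 2.54%). These 2 comparisons share no library either, but they too rest on the spread estimated from all 12 libraries in 1 fit. The 14 calls in PBS mice came to 6 without water + PBS replicate 1, 7 without ZnSO4 + PBS replicate 1 and 9 without ZnSO4 + PBS replicate 3, and the 13 in Dex mice to 6, 8 and 5 without water + Dex replicate 1, 2 or 3 and to 7 without ZnSO4 + Dex replicate 1. Slc28a1, a sodium-coupled nucleoside carrier, rose from 1.93 ± 1.62 to 28.9 ± 10.2 normalised counts in PBS mice (LFC 3.81 ± 0.52, adjusted p = 0.0027), and by 3.18 in Dex mice. Slc28a3 of the same family fell by 1.26 and 1.16 on the log2 scale. The glucose-sensor relatives Slc5a4a and Slc5a4b rose by 1.43 each in PBS mice and by 1.26 and 1.16 in Dex mice. Aqp7 rose by 1.82 in PBS mice (adjusted p = 0.0062).

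Car4, the membrane-bound carbonic anhydrase of the brush border, fell with ZnSO4 by 1.57 and 1.79 on the log2 scale in PBS and Dex mice (adjusted p = 0.028 and 0.0155). Wnk4, a kinase that regulates sodium and chloride transporters, rose by 1.39 ± 0.12 in Dex mice (adjusted p = 1.6e-04) and was also called in PBS mice. Guca2a rose by 0.61 ± 0.11 with ZnSO4 in PBS mice (adjusted p = 0.013). Of the ENaC group 1 of 9 moved in each comparison, the protease Tmprss4, named after its values were seen. Its LFCs were -0.50 and -0.65 (adjusted p = 0.016 and 0.0041). Downregulated in each comparison were 2.54% of all tested genes.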

How the data were processed

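RNA of 12 ilea was read as single-end Illumina libraries (stranded kit). Per the submitters' processing notes and the study's methods, reads were trimmed (Trimmomatic), aligned to mm10 with HISAT2 2.0.4 and counted per gene with featureCounts. The authors deposited raw counts, with multimapping reads left out. Ensembl identifiers were paired with GENCODE M21 symbols. Totals of 10760132 to 11827487 counts limit precision for genes such as Scnn1b. The 24517 genes without any read and others under the filterByExpr minimum of 10 counts were not tested.

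1 edgeR 4.0.16 quasi-likelihood model of 4 group means (TMM, R 4.3.3, all 12 libraries) gave LFC, SE and Benjamini-Hochberg adjusted p over 15938 genes, and a gene was called changed at an adjusted p under 0.05 with no cut-off on LFC. The code was tested on simulated data, for the comparison of Dex in water mice. It recovered 16 of 100 genes changed 1.5-fold and 67 of 100 changed 2-fold, so in that setting many changes of this size were missed. Only these genes were changed in the simulation, whereas 1582 were called in the data. The adjusted p depends on how many genes change, so recovery in the data may differ. No pair of libraries was a duplicate. Alternatives were DESeq2 1.42.0, RLE scaling, other filters, a replicate block, only the groups compared, B cell or villus markers as a covariate, scaling on pan-epithelial genes, an LFC above 0.8 and each library left out. The 9 genes, the wider list and the tests were chosen with earlier results of these data known. Of the wider list the text names, in each role, the most abundant gene per kb, and, in each of 4 comparisons, up to 6 called genes of largest LFC with a mean of at least 1 CPM and no overlap of groups. It names the 3 genes most correlated with each of the 9, Mt1, Fkbp5 and Tsc22d3. Scnn1d, Best4 and Slc28a2b were not matched. Some genes that this rule names are not reported here. Promoter windows came from RefSeq.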

Additional observations from a re-analysis of the deposited data

How the results depend on the processing

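Over 1008 refits of the 49 LFCs of the 7 tested genes, 905 kept direction and side of the threshold, 63 lost and 20 gained a call and 20 changed sign. The calls of Sgk1 and Slc9a3 with Dex, and of Slc9a3 with ZnSO4 in PBS mice, held in all alternatives. Sign changes were of values that did not pass: with the villus covariate Cftr with Dex in water mice (-0.113), Nedd4l with ZnSO4 in PBS mice (0.0055), Slc26a3 with ZnSO4 in Dex mice (0.034) and the interactions of Atp1b1 (0.0285) and Slc26a3 (0.156), and with pan-epithelial scaling Cftr with Dex in water mice (-0.0359) and the interaction of Atp1b1 (0.0629). Without 1 library the LFC ran from -0.0397 to 0.104 for Cftr with Dex in water mice, from -0.059 to 0.0103 and from -0.00795 to 0.0346 for Nedd4l with ZnSO4 in PBS mice and averaged, and for the interaction from -0.0409 to 0.133 (Scnn1a), -0.138 to 0.0491 (Atp1b1), -0.00411 to 0.341 (Cftr) and -0.389 to 0.0721 (Slc26a3). Pan-epithelial scaling shifted the median interaction of all genes by 0.14.

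Of the 9 genes, those called with Dex in water mice numbered 2 to 5 without 1 library (wider list 21 to 47, 24 with an LFC above 0.8). With Dex in ZnSO4 mice they were 2 with an LFC above 0.8, with only the groups compared or with the B cell covariate, and 2 to 5 without 1 library (wider list 25 above 0.8). With ZnSO4 in PBS mice 2 were called by DESeq2, without a filter, with 10 counts in every library, with only the groups compared, with the villus covariate and with pan-epithelial scaling, and 1 to 2 without 1 library (wider list 9 above 0.8, 6 to 19 without 1 library). With ZnSO4 in Dex mice 2 were called by DESeq2, 1 with 10 counts in every library or with the villus covariate, and 0 to 1 without 1 library (wider list 23 by DESeq2, 7 above 0.8 or with the villus covariate, 5 to 18 without 1 library). Averaged, an LFC above 0.8 left 3 of the 9 genes for Dex and 1 for ZnSO4 (wider list 27 and 9), and 2 to 4 remained called for ZnSO4 without 1 library. Beyond fewer genes, samples or a cut-off by construction, the cause was not tested. Same-numbered libraries did not deviate together (median correlation -0.06 over 18 pairs, 0.02 over 36 others), so no pairing was used. The replicate block gave 4, 4, 1 and 0 of the 9 genes and 35, 44, 11 and 11 of the wider list in the 4 comparisons, and ended the averaged ZnSO4 call of Cftr (adjusted p = 0.064). Depth limits Scnn1b and Scnn1g.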
